A study of Mus musculus with 14 samples.

Results

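Cytokines, chemokines and their receptors are the signals and sensors through which blood and immune cells, and the tissues around them, instruct one another. Described here, from an ATAC-seq series, is the set of genes in these families that lie beside a region of changed chromatin accessibility in erythro-myeloid progenitors, an early wave of blood progenitors born in the yolk sac. Members were taken by name. They are genes whose symbol starts with Il, Ccl, Ccr, Cxcl or Cxcr and a digit, or with Tnfsf, Tnfrsf or Ifn, in any of the 6 lists in which the authors report regions of differing accessibility, with antisense genes ending in "os" left out. The rule gave 62 genes on 99 of 10679 lines, against 6687 genes in all lists. There were 24 interleukin and interleukin receptor genes, 18 chemokine genes, 18 genes of the tumour necrosis factor (TNF) family and 2 interferon receptor genes.

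The mice were C57BL/6 and the embryos were at day E10.5. Every group carried floxed alleles, Ezh2 fl/fl, so the controls carry them too. The groups used were 5 Tie2 KO samples (Ezh2 fl/fl; Tie2-Cre Tg/+), 3 Vav KO samples (Ezh2 fl/fl; Vav-Cre Tg/+) and 3 Tie2 WT samples (Ezh2 fl/fl; Tie2-Cre +/+, with no transgene). A further 3 Vav WT samples are in no list, so Vav KO was set against the control of the other Cre line, and the Cre line cannot be told apart from the genotype there. In Tie2 KO against Tie2 WT the Cre transgene itself cannot be told apart from Ezh2 loss. Each library came from 500 sorted cells, per the labels. Tie2 regulatory sequence drives Cre in endothelium and in the blood cells that arise from it, and Vav regulatory sequence drives it in blood cells. Nothing in the labels says whether samples of a group came from separate embryos or litters, or from pools.

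The lists hold called regions only, each with its log2 fold change and adjusted p-value. They give no value per sample, so library depth is unknown, the spread between samples cannot be shown, and a region's only error is the adjusted p-value that the authors computed. For the same reason the progenitor label could not be checked against marker levels. All log2 fold changes below are the authors' own, of accessibility in the group named first over the group named second. A region was paired with a gene where it covered the gene start or ended within 5 kb upstream of one, so enhancers further away are not covered. Member regions had absolute log2 fold changes from 0.62 upward and adjusted p-values up to 0.0439 in the authors' deposited table. The region over the start of Tek, the gene whose sequence drives Tie2-Cre, had a log2 fold change of 2.90 in Tie2 KO against Tie2 WT and 2.92 in Tie2 KO against Vav KO in the authors' deposited table. The region over the start of Vav1 had 0.81 in Vav KO against Tie2 WT and -0.90 in Tie2 KO against Vav KO in the authors' deposited table. The Cre transgenes carry regulatory sequence of these genes, so reads of transgene and gene cannot be told apart there. Ezh2 had no region in these lists, so its deletion is not checked here.

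Ezh2 is the enzyme of the Polycomb complex PRC2, whose mark on histone H3 keeps many developmental and lineage genes silent, most of all at gene starts rich in CpG dinucleotides. Interleukins are secreted proteins that act mostly through paired receptor chains, many of them signalling through Jak kinases and Stat factors. Chemokines attract cells by binding G-protein-coupled receptors, and Cxcl12 with its receptor Cxcr4 holds blood progenitors in their niche. TNF family ligands (Tnfsf) bind receptors (Tnfrsf) that signal mainly through Traf adaptors and NF-kB and steer survival and death of cells.

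The gene starts of members that carried a called region differed widely in CpG content. Windows from 250 bases before to 50 after the gene start are shown for 6 members, taken in order of the largest change of a region over the start. They come from the 39 members with regions in several comparisons, several regions in a comparison or one of the 5 largest changes of a comparison and direction, where the RefSeq promoter table held a window. Members outside those 39, such as Tnfrsf8 and Tnfsf13b, also had regions over the start and are not shown. The windows of Cxcl14 and Cxcl12 held more CpG than the median of all protein-coding genes, and those of Il1r1, Ccr8, Tnfsf11 and Il18rap held fewer. The windows are those of RefSeq, build GRCm38.p6, which shares its chromosome coordinates with mm10. They lie at chr1:40224830-40225129 on the plus strand for Il1r1, chr9:120091883-120092182 on the plus strand for Ccr8, chr13:56296502-56296801 on the minus strand for Cxcl14, chr14:78307994-78308293 on the minus strand for Tnfsf11, chr6:117168285-117168584 on the plus strand for Cxcl12 and chr1:40515112-40515411 on the plus strand for Il18rap. All 300 bases of each window lay inside the region with the largest change over that start, which was called in Tie2 KO against Vav KO at Il1r1, Cxcl14 and Tnfsf11, in Tie2 KO against Tie2 WT at Ccr8 and Cxcl12 and in Vav KO against Tie2 WT at Il18rap. Capitals mark CpG dinucleotides, and each sequence reads 5′ to 3′ along the gene.
Il1r1: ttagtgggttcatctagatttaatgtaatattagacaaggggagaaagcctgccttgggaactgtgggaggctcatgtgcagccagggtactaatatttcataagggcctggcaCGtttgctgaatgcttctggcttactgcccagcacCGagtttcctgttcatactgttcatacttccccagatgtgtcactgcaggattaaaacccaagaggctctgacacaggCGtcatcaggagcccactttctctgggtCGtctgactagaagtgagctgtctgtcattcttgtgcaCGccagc
Ccr8: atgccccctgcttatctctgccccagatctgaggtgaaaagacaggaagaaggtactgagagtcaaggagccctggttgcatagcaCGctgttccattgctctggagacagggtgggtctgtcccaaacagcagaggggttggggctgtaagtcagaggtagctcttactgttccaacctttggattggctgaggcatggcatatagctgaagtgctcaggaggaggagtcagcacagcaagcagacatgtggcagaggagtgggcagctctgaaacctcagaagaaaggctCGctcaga
Cxcl14: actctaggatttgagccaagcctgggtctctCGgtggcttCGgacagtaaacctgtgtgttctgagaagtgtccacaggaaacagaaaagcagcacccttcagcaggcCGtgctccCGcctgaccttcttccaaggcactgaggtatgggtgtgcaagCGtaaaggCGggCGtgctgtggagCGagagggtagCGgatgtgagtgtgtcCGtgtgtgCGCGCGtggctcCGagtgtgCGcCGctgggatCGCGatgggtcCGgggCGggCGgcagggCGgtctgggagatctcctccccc
Tnfsf11: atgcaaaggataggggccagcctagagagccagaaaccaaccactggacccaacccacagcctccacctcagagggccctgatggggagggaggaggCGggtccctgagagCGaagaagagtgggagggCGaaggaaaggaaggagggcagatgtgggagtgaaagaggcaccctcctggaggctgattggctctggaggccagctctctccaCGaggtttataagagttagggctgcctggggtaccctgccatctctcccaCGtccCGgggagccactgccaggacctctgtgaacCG
Cxcl12: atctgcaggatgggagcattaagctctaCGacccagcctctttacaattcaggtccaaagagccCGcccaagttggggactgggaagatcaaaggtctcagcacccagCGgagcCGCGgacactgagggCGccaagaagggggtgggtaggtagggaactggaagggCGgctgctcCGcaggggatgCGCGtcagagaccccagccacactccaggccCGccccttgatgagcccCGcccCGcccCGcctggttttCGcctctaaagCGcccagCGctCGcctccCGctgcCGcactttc
Il18rap: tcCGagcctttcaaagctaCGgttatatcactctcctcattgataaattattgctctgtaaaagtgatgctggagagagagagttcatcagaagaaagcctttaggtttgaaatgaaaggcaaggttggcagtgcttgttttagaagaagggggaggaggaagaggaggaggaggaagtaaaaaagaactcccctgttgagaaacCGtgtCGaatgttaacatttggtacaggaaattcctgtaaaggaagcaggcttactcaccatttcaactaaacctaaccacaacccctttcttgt

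The 6 windows held 5 CpG dinucleotides at Il1r1, 2 at Ccr8, 22 at Cxcl14, 7 at Tnfsf11, 20 at Cxcl12 and 4 at Il18rap. Accessibility was higher in Tie2 KO at the first 5 of these starts and lower in Tie2 KO and in Vav KO, each against Tie2 WT, at Il18rap. A higher region thus lay over starts with as few as 2 CpG as well as over starts with 22.

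Most members called in Tie2 KO against Tie2 WT were more accessible in Tie2 KO. Of the 195 protein-coding genes that the name rule takes from the reference table, 24 (12.3%) had a higher region nearby and 9 (4.62%) had a lower one. Among all 21900 protein-coding genes the shares were 11.5% and 2.51%. The count of higher members is therefore near the background. By family, 9 of 83 interleukin genes (10.8%), 6 of 54 chemokine genes (11.1%), 8 of 32 TNF family genes (25%) and 1 of 26 interferon genes (3.85%) lay near a higher region. The TNF family share was the only one of these 4 above the background, and no test was made of that difference. The median log2 fold change was 1.03 over the 25 higher member regions and 1.02 over all 2959 higher regions in the authors' deposited table. Over the 9 lower member regions it was -0.91, against -0.86 over all 619 lower regions in the authors' deposited table. With an absolute log2 fold change of at least 1, 14 higher and 2 lower member genes were left, and with regions over a gene start only, 10 and 2.

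Each sample pools sorted cells, so a different share of a cell type and a different accessibility per cell cannot be told apart. Of 16 markers of other yolk sac cells, 9 had a higher region in Tie2 KO against Tie2 WT (56.2%, against 11.5% of all protein-coding genes). A lower region lay at 0 of 16 (against 2.51%). The 9 were Cdh1, Col1a2, Hand1, Krt19, Krt8, Pdgfra, Pdgfrb, Twist1 and Twist2. Afp, Ttr, Apoa1, Epcam, Col1a1 and Col3a1 were in no list. In Vav KO against Tie2 WT 2 of 16 were higher (12.5%, against 5.29%). There 1 was lower (6.25%, against 2.59%), Pdgfra, at -1.57 in the authors' deposited table. In Tie2 KO against Vav KO 6 were higher (37.5%, against 11.1%) and 0 lower (against 6.35%). Of 8 endothelial markers, Cdh5 and Tek were higher (25%, against 11.5%) and Pecam1 lower (12.5%, against 2.51%) in Tie2 KO against Tie2 WT. In Vav KO against Tie2 WT 0 were called. In Tie2 KO against Vav KO Kdr, Sox17 and Tek were higher (37.5%, against 11.1%) and 0 were lower (against 6.35%). Tek is also the gene whose sequence drives Tie2-Cre. Of these groups only Tie2 KO carries that transgene, so Tek cannot be read as an endothelial marker here. Of 8 macrophage markers, 0 were called in Tie2 KO against Tie2 WT, and Csf1r was higher in Vav KO against Tie2 WT (12.5%, against 5.29%). In Tie2 KO against Vav KO Cx3cr1 was higher (12.5%, against 11.1%) and Csf1r and Itgam lower (25%, against 6.35%). Of 12 progenitor markers, Gata2 and Cd93 were lower in Vav KO against Tie2 WT (16.7%, against 2.59%), and 0 were called in Tie2 KO against Tie2 WT. In Tie2 KO against Vav KO Gata2 was higher (8.33%, against 11.1%) and Cd34 lower (8.33%, against 6.35%). Their part in the values of the cytokine genes was not tested.

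**Figure D1:**
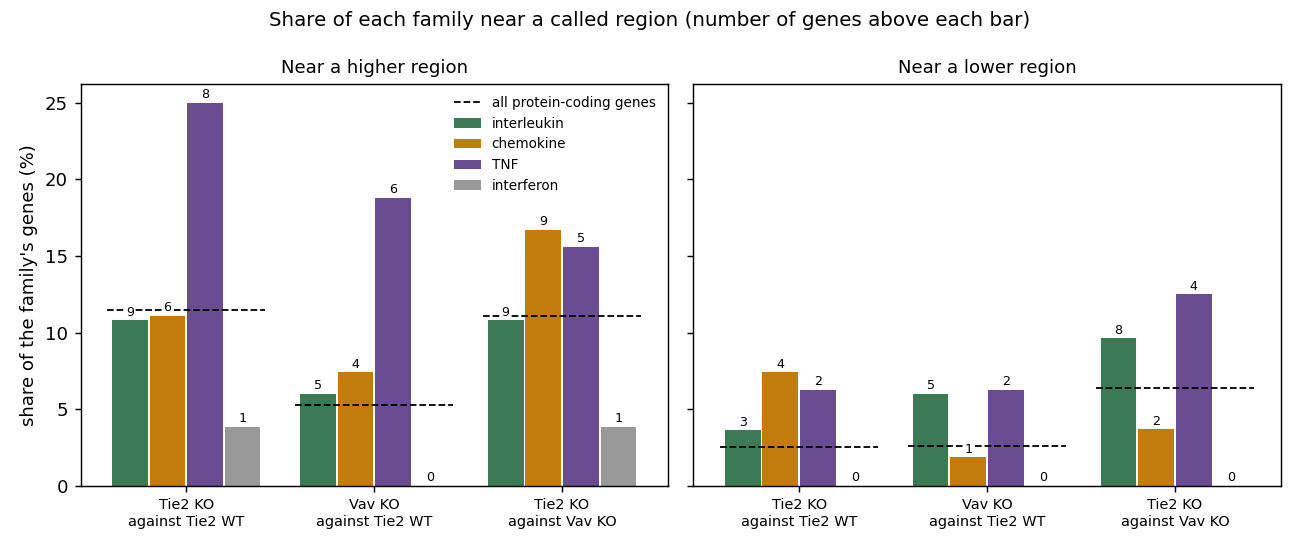
Bars give the share of each family's protein-coding genes, in percent, that lay near a higher region (left) or a lower region (right) in each comparison, with the number of genes above each bar; the dashed line is the share of all protein-coding genes. The TNF family stands at 25% near higher regions in Tie2 KO against Tie2 WT, where the dashed line is at 11.5%, while interleukins and chemokines lie at 10.8% and 11.1%.

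Among interleukin ligands, 4 of 39 genes (10.3%, against 11.5% of all genes) had a region more accessible in Tie2 KO than in Tie2 WT. They were Il17f at a log2 fold change of 1.59, Il25 at 1.35, Il13 at 0.95 and Il7 at 0.79 in the authors' deposited table. Il17f and Il25 encode cytokines of the IL-17 family, Il13 a cytokine of type 2 immunity and Il7 a growth factor of lymphocytes. Of these regions only that of Il7 covered the gene start. The Il25 region lay 4194 bp upstream in the authors' deposited table and was also paired with Efs, so it cannot be assigned to Il25 alone. The 2 lower interleukin ligands (5.13%, against 2.51%) were Il23a, a subunit of interleukin-23, at -1.22 (adjusted p 0.000112), and Il15, a growth factor of natural killer and memory T cells, at -0.91 (adjusted p 0.000145) in the authors' deposited table. The Il23a region covered the start of that gene and was also paired with Pan2.

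Of 40 interleukin receptor genes, 5 had a higher region (12.5%, against 11.5% of all genes) and 1 had a lower one (2.5%, against 2.51%), both near the background. Il20ra, a receptor chain for interleukins 19, 20 and 24, had the largest change of all members in this comparison, a log2 fold change of 1.99 (adjusted p 0.000229) in the authors' deposited table, at chr10:19710402-19712300, ending 286 bp upstream of the start. Il1r1, the signalling receptor of interleukin-1, followed at 1.66 (adjusted p 9.24e-07) in the authors' deposited table, at chr1:40224002-40225000. Il17rd and Il17rb, receptor chains of the IL-17 family, had 1.03 and 0.78, and Il27ra, a chain of the interleukin-27 receptor, had 0.92 in the authors' deposited table. The Il17rb and Il27ra regions were also paired with Chdh and Rln3. The lower receptor gene was Il18rap, the accessory chain of the interleukin-18 receptor, at -0.82 in the authors' deposited table. All 4 genes of antagonists and soluble binding proteins of interleukins (Il1rn, Il18bp, Il22ra2 and Il1f5) were in neither list of this comparison.

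Of 37 chemokine ligand genes, 3 had a higher region (8.11%, against 11.5% of all genes) and 1 had a lower one (2.7%, against 2.51%). The 3 higher ligand genes were Cxcl12 at 1.22, Ccl1 at 1.20 and Cxcl14, a chemokine of epithelia and other tissues, at 1.15 in the authors' deposited table. The Cxcl12 region, chr6:117166002-117170300, was the widest of all member regions at 4299 bp and covered the gene start. In the authors' deposited table the Cxcl14 region had the smallest adjusted p among members of this comparison, 5.36e-08. Of 17 chemokine receptor genes, 3 had a higher region and 3 a lower one (17.6% each, against 11.5% and 2.51%). Ccr8 at 1.51, Ccr6 at 1.09 and Ccr10 at 0.75 were higher, while Ccr1 at -1.33, Cxcr3 at -0.98 and Ccr1l1 at -0.84 were lower in the authors' deposited table. Ccr8, Ccr6, Ccr10 and Cxcr3 are best known from lymphocytes, and Ccr1 from myeloid cells. Ccl17, a ligand of Ccr4, was the single lower ligand gene, at -0.77 in the authors' deposited table. The Ccr10 region was also paired with Cntnap1.

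In the TNF family, the higher ligand genes were Tnfsf13b, which encodes the B cell factor BAFF, at 1.34, Tnfsf11, which encodes the osteoclast factor RANKL, at 1.03 and Tnfsf9, the ligand of Tnfrsf9, at 0.71 in the authors' deposited table. Regions of Tnfsf13b and Tnfsf11 covered the gene start. The higher receptor genes were Tnfrsf19 at 1.11, Tnfrsf12a at 1.02 and 0.77 over a pair of regions, Tnfrsf26 at 0.93, Tnfrsf1a at 0.74 and Tnfrsf22 at 0.71 in the authors' deposited table. Tnfrsf1a is the main receptor of TNF itself, Tnfrsf12a is the receptor of Tnfsf12, and Tnfrsf22 and Tnfrsf26 are mouse genes of 1 cluster on chromosome 7. The region nearer Tnfrsf12a was also paired with Cldn6. On the lower side stood a matched ligand and receptor, Tnfsf14 at -0.76 and Tnfrsf14 at -0.91 in the authors' deposited table. Of the interferon genes, Ifnlr1, a receptor chain for type III interferons, was higher at 0.99 over its start in the authors' deposited table.

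**Figure D2:**
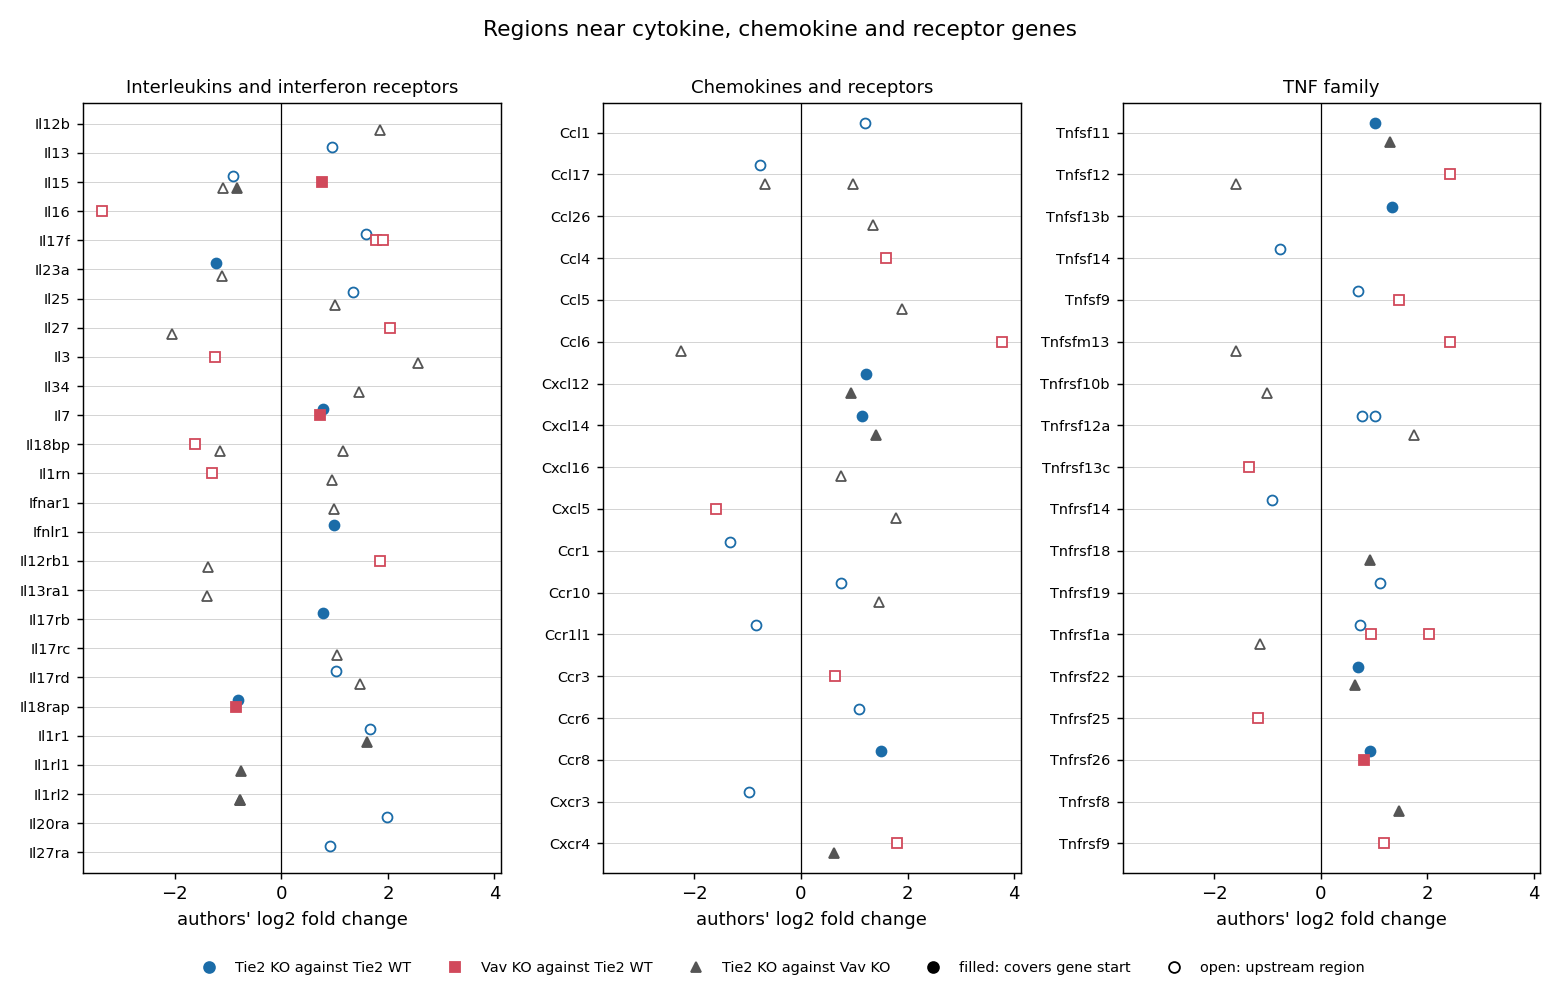
Each symbol is a region, placed at the authors' log2 fold change (horizontal axis) in the row of its gene, with ligands above antagonists and receptors; circles are Tie2 KO against Tie2 WT, squares Vav KO against Tie2 WT and triangles Tie2 KO against Vav KO, filled where the region covers the gene start. Ccl6 at 3.77 and Il16 at -3.36, both in Vav KO against Tie2 WT, are the outermost points.

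Fewer members were called in Vav KO against Tie2 WT, and the median change over the called regions was larger than in Tie2 KO against Tie2 WT, a difference that was not tested. Over all higher regions too, fewer were called (1313 against 2959) and the median was larger (1.35 against 1.02). Vav KO had 3 samples and Tie2 KO 5, and only called regions enter the medians. Neither difference can be read as a trait of these genes. In Vav KO against Tie2 WT, 15 of 195 genes (7.69%) had a higher region nearby and 8 (4.1%) had a lower one, against 5.29% and 2.59% of all protein-coding genes. Higher were 5 of 83 interleukin genes, 4 of 54 chemokine genes and 6 of 32 TNF family genes, and lower were 5, 1 and 2. The 6 TNF family genes include Tnfsf12 and Tnfsfm13, which were called from the same region. No interferon gene was called in either direction. The median log2 fold change was 1.69 over the 16 higher member regions, against 1.35 over all 1313, and -1.33 over the 8 lower ones, against -1.30 over all 630, in the authors' deposited table.

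The largest rise of any member lay 4214 bp upstream of Ccl6, a chemokine of myeloid cells found in rodents, at chr11:83597302-83598300, where the log2 fold change was 3.77 (adjusted p 7.46e-08) in the authors' deposited table. Its cluster neighbour Ccl4, an attractant of monocytes and T cells, was higher too, at 1.59 in the authors' deposited table. The receptor genes Cxcr4 and Ccr3 were higher at 1.80 and 0.64, and Cxcl5, a neutrophil attractant, was lower at -1.59, in the authors' deposited table. The Cxcr4 region lay 3102 bp upstream of the start.

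The largest fall was at Il16, a T cell attractant, with a log2 fold change of -3.36 (adjusted p 2.55e-06) in the authors' deposited table, at chr7:83748502-83749600, 2775 bp upstream of the start. Il3, a growth factor of multipotent and myeloid progenitors, was lower at -1.25 in the authors' deposited table. Of 4 interleukin antagonist genes, 2 were lower (50%, against 2.59% of all genes), Il18bp at -1.62 and Il1rn at -1.30 in the authors' deposited table. Their regions lay 4311 bp and 759 bp upstream of the start in the authors' deposited table. This share rests on few genes and was not tested. Il1rn encodes the interleukin-1 receptor antagonist and Il18bp a soluble binder of interleukin-18. Il18rap, at -0.85 in the authors' deposited table, completed the lower interleukin genes. The higher ones were Il27 at 2.04, Il17f at 1.90 and 1.78 over a pair of regions, Il12rb1 at 1.86, Il15 at 0.77 and Il7 at 0.73 in the authors' deposited table. Il27 encodes a subunit of interleukin-27, and Il12rb1 a receptor chain shared by interleukins 12 and 23.

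In the TNF family, 1 region upstream of both Tnfsf12 and Tnfsfm13, which share their gene start, was higher at 2.42 in the authors' deposited table. Tnfrsf1a had a pair of higher regions, at 2.03 and 0.94, Tnfsf9 had 1.48, Tnfrsf9 had 1.19 and Tnfrsf26 had 0.82 in the authors' deposited table. The Tnfrsf9 region was also paired with Park7. Tnfrsf13c, the BAFF receptor of B cells, at -1.35 and Tnfrsf25, a receptor with a death domain, at -1.17 were lower in the authors' deposited table.

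**Figure D3:**
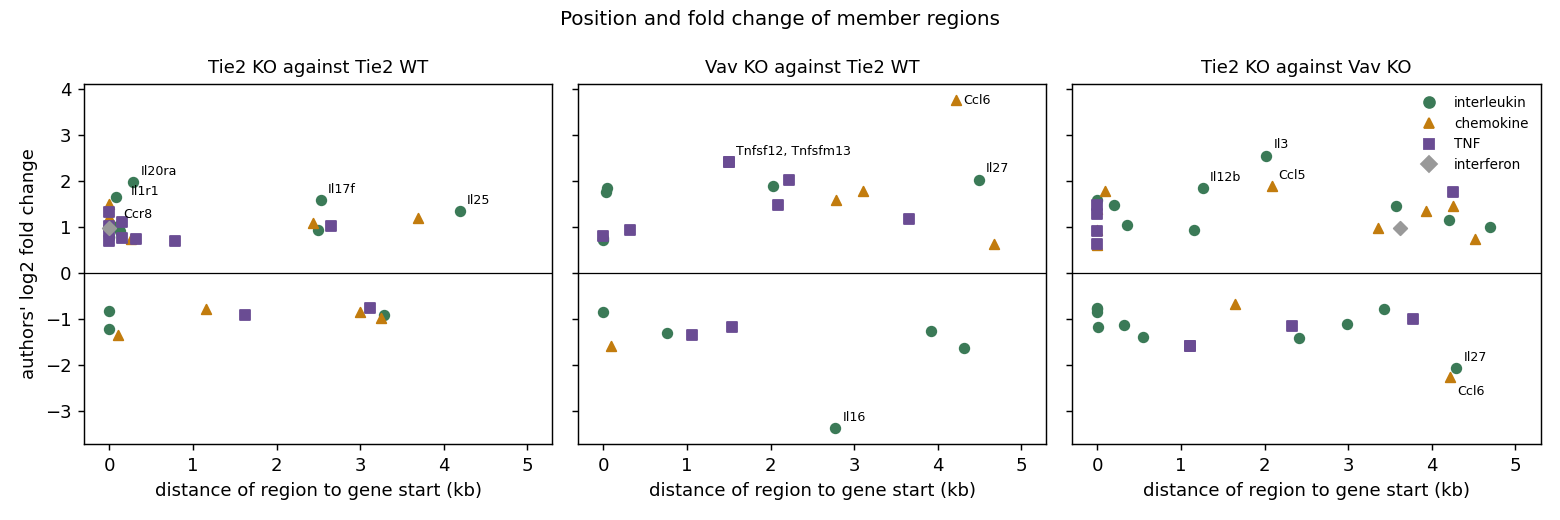
Each symbol is a member region, with its distance to the gene start in kb on the horizontal axis (0 where it covers the start) and the authors' log2 fold change on the vertical axis, by comparison and family. In Vav KO against Tie2 WT the outermost regions, at Ccl6 (3.77) and Il16 (-3.36), lie upstream of the start.

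Tie2 KO was also set directly against Vav KO by the authors, which tests the difference between the knockouts itself. The knockouts differ in Cre line and Vav WT is in no list. A difference between the lines thus cannot be told apart from a difference in the effect of Ezh2 loss. That comparison called 24 of 195 members (12.3%) near a region higher in Tie2 KO and 14 (7.18%) near a lower one, against 11.1% and 6.35% of all protein-coding genes, both close to the background. Of 54 chemokine genes, 9 had a region higher in Tie2 KO (16.7%) and 2 a lower one (3.7%), with Ccl17 on both sides. Interleukin genes numbered 9 higher (10.8%) and 8 lower (9.64%), with Il18bp on both sides, and TNF family genes 5 (15.6%) and 4 (12.5%). The 4 lower TNF family genes include Tnfsf12 and Tnfsfm13, called from the same region. The comparison uses the same Tie2 KO and Vav KO samples as the earlier ones, so values in it are no independent repeat.

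Higher in Tie2 KO than in Vav KO were the chemokine ligand genes Ccl5 at 1.89, Cxcl5 at 1.79, Cxcl14 at 1.41, Ccl26 at 1.35, Ccl17 at 0.98, Cxcl12 at 0.94 and Cxcl16 at 0.75 in the authors' deposited table. Ccl5 attracts T cells and monocytes, and Ccl26 is an eosinophil attractant. The higher receptor genes were Ccr10 at 1.47 and Cxcr4 at 0.62 in the authors' deposited table. Cxcr4 also had the region higher in Vav KO than in Tie2 WT described above, but that region lay upstream, whereas the one higher in Tie2 KO than in Vav KO covered the start. Lower in Tie2 KO were Ccl6 at -2.25 and, at another region than the higher one, Ccl17 at -0.67 in the authors' deposited table.

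Il3 led the interleukins, at 2.56 (adjusted p 5.81e-07) in the authors' deposited table, at chr11:54269302-54270300, 2022 bp upstream of the start. Il12b, the subunit shared by interleukins 12 and 23, had 1.86, Il34, a ligand of the macrophage receptor Csf1r, had 1.46 and Il25 had 1.01 in the authors' deposited table. Of receptor genes, Il1r1 at 1.60, Il17rd at 1.48 and Il17rc at 1.05 were higher, and Il13ra1 at -1.40, Il12rb1 at -1.38, Il1rl2 at -0.77 over each of a pair of regions and Il1rl1 at -0.76 were lower in the authors' deposited table. Il1rl2 is the receptor of interleukin-36 and Il1rl1 that of interleukin-33. Lower ligand genes were Il27 at -2.06, Il23a at -1.12 and, over a pair of regions, Il15 at -1.10 and at -0.84, per the values in the authors' deposited table. The antagonist genes were Il1rn, higher at 0.95, and Il18bp, with 1.16 at a region 4211 bp upstream and -1.16 at a region 11 bp upstream in the authors' deposited table.

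TNF family genes higher in Tie2 KO than in Vav KO were Tnfrsf12a at 1.76, Tnfrsf8, which encodes the lymphoma marker CD30, at 1.48, Tnfsf11 at 1.30, Tnfrsf18, a receptor of regulatory T cells, at 0.92 and Tnfrsf22 at 0.64 in the authors' deposited table. The Tnfrsf12a region was also paired with Cldn9 and the Tnfrsf18 region with Gm10560. Lower were Tnfsf12 and Tnfsfm13 at -1.58, Tnfrsf1a at -1.14 and Tnfrsf10b, a death receptor, at -1.0 in the authors' deposited table. In the authors' deposited table the region of Tnfsf12 and Tnfsfm13 had the weakest support of all member regions, with an adjusted p at 0.0439. The interferon receptor gene Ifnar1 was higher at 0.99 in the authors' deposited table.

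Of the 62 genes, 34 were called in 1 comparison, 26 in 2 and 2, Il15 and Tnfrsf1a, in all 3. The same split was not made for all listed genes, so it cannot be read as a trait of these families. The comparisons share samples in pairs, so values are set side by side as a description. At overlapping regions, Ccl6 had 3.77 in Vav KO against Tie2 WT and -2.25 in Tie2 KO against Vav KO in the authors' deposited table. At overlapping regions of the same 2 comparisons, Il27 had 2.04 and -2.06, Tnfsf12 had 2.42 and -1.58 and Il12rb1 had 1.86 and -1.38 in the authors' deposited table. With the signs the other way round, Cxcl5 had -1.59 and 1.79, Il18bp had -1.62 and 1.16 and Il1rn had -1.30 and 0.95 in the authors' deposited table. All of these genes were in neither list of Tie2 KO against Tie2 WT, which does not show that they were the same in those groups.

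Other members had overlapping regions in both comparisons with Tie2 KO on top. Cxcl14 had 1.15 against Tie2 WT and 1.41 against Vav KO, Tnfsf11 had 1.03 and 1.30, Il17rd had 1.03 and 1.48, Il1r1 had 1.66 and 1.60 and Cxcl12 had 1.22 and 0.94 in the authors' deposited table. Il23a had -1.22 against Tie2 WT and -1.12 against Vav KO, and Ccl17 had -0.77 and -0.67, in the authors' deposited table. Overlapping regions called in both knockouts against Tie2 WT lay at Il17f (1.59 in Tie2 KO and 1.90 in Vav KO), Tnfrsf26 (0.93 and 0.82), Il7 (0.79 and 0.73), Tnfrsf1a (0.74 and 0.94) and Il18rap (-0.82 and -0.85) in the authors' deposited table. Il15 differed by region: its start was covered by a region at 0.77 in Vav KO against Tie2 WT and -0.84 in Tie2 KO against Vav KO, and its upstream region had -0.91 in Tie2 KO against Tie2 WT and -1.10 in Tie2 KO against Vav KO in the authors' deposited table.

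Several members are neighbours in gene clusters, and neighbours did not always move together. In the IL-1 receptor cluster on chromosome 1 the start of Il1rl2 lay 99.5 kb, that of Il1rl1 204.5 kb and that of Il18rap 290.3 kb from the start of Il1r1. Accessibility in Tie2 KO against Vav KO was higher at Il1r1, at 1.60, and lower at Il1rl2 and Il1rl1, at -0.77 and -0.76, in the authors' deposited table. At Il18rap both knockouts were below Tie2 WT, at -0.82 in Tie2 KO and -0.85 in Vav KO in the authors' deposited table. On chromosome 9 the starts of Ccr1, Ccr1l1 and Ccr3 lay within 53.3 kb, with Ccr1 and Ccr1l1 lower in Tie2 KO and Ccr3 higher in Vav KO, each against Tie2 WT. Ccr3 was not called in Tie2 KO against Tie2 WT, nor Ccr1 and Ccr1l1 in Vav KO against Tie2 WT. No comparison thus shows Ccr3 moving the other way from Ccr1 and Ccr1l1. On chromosome 17 the start of Tnfsf14 lay 88.8 kb from that of Tnfsf9, and in Tie2 KO against Tie2 WT Tnfsf9 was higher at 0.71 and Tnfsf14 lower at -0.76 in the authors' deposited table. The starts of Tnfrsf26 and Tnfrsf22 lay 21.8 kb apart on chromosome 7 and both were higher in Tie2 KO. Genes of this kind arose by duplication, and the sources used here do not say how reads matching more than 1 copy were treated, so values at close copies such as Ccr1 and Ccr1l1 or Tnfrsf22 and its neighbours are uncertain.

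**Figure D4:**
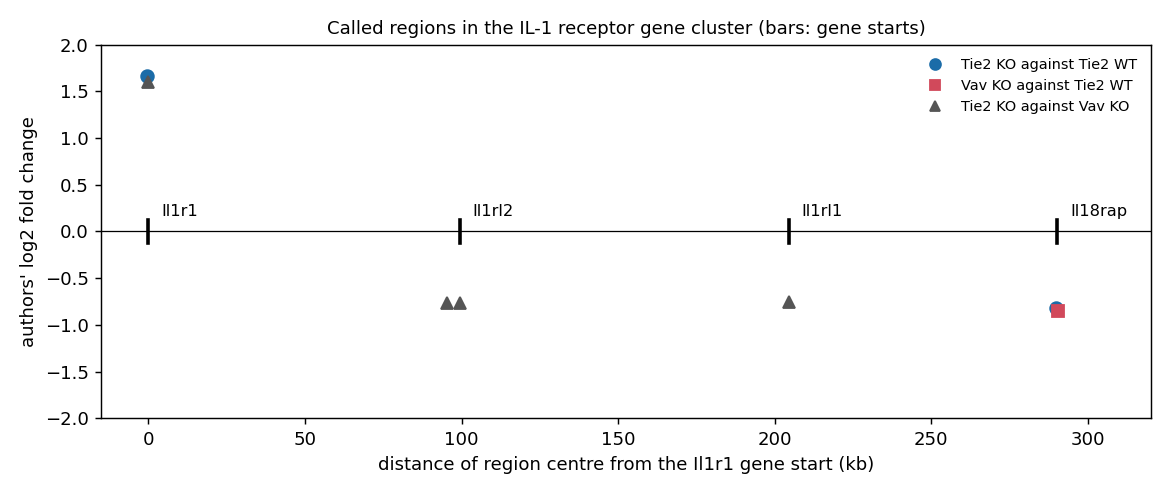
Symbols mark called regions of the IL-1 receptor gene cluster by the distance of their centre from the Il1r1 start in kb (horizontal axis) and the authors' log2 fold change (vertical axis); black bars mark gene starts. Il1r1 lies above 0 in Tie2 KO against Tie2 WT and against Vav KO, and the other 3 genes lie below 0.

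Known ligand and receptor partners were looked up for 97 pairs of family genes, a list made after the values were seen. No share over other pairs of genes was computed, so the counts of pairs are no result about the members. Among the regions below, those of Il25, Il17rb, Tnfrsf9 and Tnfrsf12a were also paired with Efs, Chdh, Park7 and Cldn9, and that of Tnfsf12 with Tnfsfm13. Both partners were higher in Tie2 KO against Tie2 WT in 2 pairs, Ccl1 (1.20) with Ccr8 (1.51) and Il25 (1.35) with Il17rb (0.78), and both lower in 1 pair, Tnfsf14 (-0.76) with Tnfrsf14 (-0.91), in the authors' deposited table. Both partners were higher in Vav KO against Tie2 WT in 1 pair, Tnfsf9 (1.48) with Tnfrsf9 (1.19), in the authors' deposited table. Both were higher in Tie2 KO against Vav KO in 1 pair, Cxcl12 (0.94) with Cxcr4 (0.62), in the authors' deposited table. In the same comparison 2 pairs went opposite ways, Il12b (1.86) with Il12rb1 (-1.38) and Tnfsf12 (-1.58) with Tnfrsf12a (1.76), in the authors' deposited table. Both partners were read from the same pools of sorted cells, so the pairs say nothing of which cells would exchange the signal.

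Regions over a gene start were called at fewer members than upstream regions. In Tie2 KO against Tie2 WT, 10 of 195 genes (5.13%) had a higher region over the start, against 7.11% of all protein-coding genes, and 2 (1.03%), Il18rap and Il23a, had a lower one, against 0.384%. For Vav KO against Tie2 WT the higher starts were those of Il15, Il7 and Tnfrsf26 (3 genes, 1.54%, against 0.886%), and the lower start was that of Il18rap (1 gene, 0.513%, against 0.411%). For Tie2 KO against Vav KO 8 members (4.1%, against 5.42%) had a higher start and 3 (1.54%, against 0.671%), Il15, Il1rl1 and Il1rl2, a lower one. As a share of regions, 40% of the 25 higher member regions in Tie2 KO against Tie2 WT covered the start, against 55.6% of all 2959, and 33.3% of the 24 in Tie2 KO against Vav KO, against 43.8% of all 2873.

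The start windows of members held few CpG dinucleotides. Of the 62 members, 43 matched a RefSeq window, and their median was 5 CpG in 300 bases, against 4 for 112 family genes in no list and 13 for 17492 protein-coding genes. In Tie2 KO against Tie2 WT, the 7 members with a window and a higher region over the start had a median of 18 CpG (2 to 32), the same as the 1137 genes of that kind in the whole list. The 10 with a higher region only upstream had a median of 9 (2 to 20), against 20 for all 737 such genes. The lower start of Il18rap had 4, against a median of 7 for all 62 genes with a lower start. The 6 with a lower region only upstream had a median of 3 (1 to 7), against 19 for all 370 such genes. In Tie2 KO against Vav KO the 7 with a higher region over the start had a median of 15 (4 to 22), against 17 for all 869 such genes. The lower starts of Il1rl1 and Il1rl2 had 1 and 3 CpG, against a median of 7 for all 121 such genes. With a region only upstream in that comparison, 9 higher members had a median of 6 (1 to 26) and 6 lower ones 4.5 (2 to 28). In Vav KO against Tie2 WT, 7 higher members with a region only upstream had a median of 4 (1 to 20) and 6 lower ones 5.5 (1 to 12). All genes in each of these 4 upstream groups had a median of 20. The most CpG-rich member start was that of Il17rb with 32. No test was made of these differences. Windows were not matched for Ccl26, Ccl4, Ccl5, Ccr10, Cxcl16, Cxcl5, Il12rb1, Il15, Il23a, Il25, Il27, Il27ra, Il34, Il7, Tnfrsf10b, Tnfrsf22, Tnfrsf26, Tnfsf12 and Tnfsf9.

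**Figure D5:**
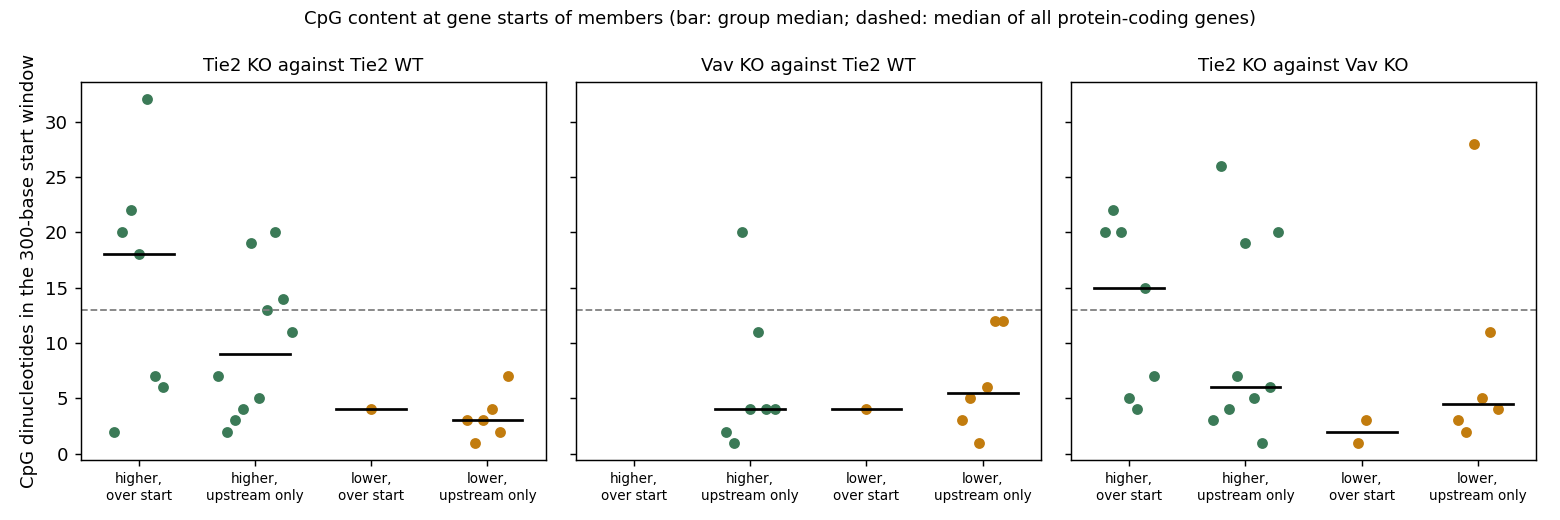
Points are members with a RefSeq window, placed by the number of CpG dinucleotides in the 300-base start window (vertical axis), in groups by direction and by whether a called region covers the start; bars are group medians and the dashed line is the median of all protein-coding genes, 13. In Tie2 KO against Tie2 WT, members with a higher region over the start have a median of 18, and those with a lower region lie at 7 or below. Members with a lower region reach 12 in Vav KO against Tie2 WT and 28 in Tie2 KO against Vav KO.

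Matches to short motifs were counted on both strands of the 43 windows, as a description. The STAT motif TTCNNNGAA was found in 8 (7.79% of all protein-coding windows hold it), the NF-kB motif, GGG and CC with any 5 bases between, in 23 (56.5% of all), and the interferon response motif, GAAA and GAAA with any 2 bases between, in 3 (3.4% of all). The GATA motif AGATAA was found in 6 (9.92% of all) and the PU.1 motif GAGGAAGT in 2 (3.16% of all). PU.1 is the master regulator of myeloid cells, and its motif was matched at Il18rap, in the window printed above, and at Cxcr3. Both genes had a lower region in Tie2 KO against Tie2 WT. It covered the window at Il18rap but lay 3254 bp upstream of the start at Cxcr3, outside the window. With 2 of 43 windows matched, the count is near the share of all windows and is no result about the members. A match of letters shows no binding.

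Genes that act downstream of these receptors were below the background share in some lists and above it in others. Of 64 genes of Jak, Stat, Socs, Traf, Irf and NF-kB signalling, 2 in Tie2 KO against Tie2 WT (3.12%, against 11.5% of all) had a higher region, Map3k14 at 1.32 and 0.89 and Tnfaip3 at 1.12 in the authors' deposited table. Map3k14 drives the alternative NF-kB pathway and Tnfaip3 restrains NF-kB. Near a lower region lay 4 (6.25%, against 2.51%), Fadd at -0.92, Jak3 at -0.91, Socs1 at -0.80 and Tyk2 at -0.59 in the authors' deposited table. For Vav KO against Tie2 WT, 4 were higher (6.25%, against 5.29%) and 4 lower (6.25%, against 2.59%), with Nfkb1 on both sides, and the largest fall was at Nfkbiz, at -2.02 in the authors' deposited table. For Tie2 KO against Vav KO, 8 (12.5%, against 11.1%) were higher, among them Cish, a feedback inhibitor of Stat signalling, at 2.51, and the myeloid and lymphoid regulators Irf5 at 1.13, Irf8 at 1.11 and Irf4 at 0.71, and 3 (4.69%, against 6.35%) were lower, in the authors' deposited table.

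Related cytokine genes outside the name rule numbered 56. In Tie2 KO against Tie2 WT, 7 (12.5%, against 11.5% of all) were higher and 3 (5.36%, against 2.51%) lower. Cd40, a TNF receptor family member, led the higher ones at 1.92, and Ltb, a TNF family ligand, the lower ones at -1.27 in the authors' deposited table. As to Vav KO against Tie2 WT, 11 (19.6%, against 5.29%) were higher and 1 (1.79%, against 2.59%), Ccrl2 at -1.02, was lower in the authors' deposited table. The 11 were Epor at 1.70, Crlf2 at 1.62, Osm at 1.54, Ltbr at 1.39, Clcf1 at 1.35 and Csf3 at 1.32 in the authors' deposited table. The others among them were Epo at 1.23, Cx3cl1 at 0.95, Csf1r at 0.92, Ackr3 at 0.91 and Lifr at 0.70 in the authors' deposited table. Epo and Epor are genes of red cell growth signals, Csf3 of granulocyte and Csf1r of macrophage ones, and the rest have other roles. As to Tie2 KO against Vav KO, 10 (17.9%, against 11.1%) were higher and 8 (14.3%, against 6.35%) lower, with Csf1r at -1.33, Osm at -1.21 and Epor at -0.58 in the authors' deposited table. Ackr3, a scavenging receptor of Cxcl12, was higher in all 3 comparisons, at 0.83 and 0.91 in Tie2 KO and in Vav KO, each against Tie2 WT, and 0.65 in Tie2 KO against Vav KO in the authors' deposited table. These 3 values do not add up, since Tie2 KO had the smaller value against Tie2 WT but lay above Vav KO directly. In that order the regions ended 79, 179 and 79 bp upstream in the authors' deposited table, and what sets the values apart was not tested.

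The other 133 family genes were in no list. They were 59 of 83 interleukin genes, 36 of 54 chemokine genes, 14 of 32 TNF family genes and 24 of 26 interferon genes. All 21 interferon ligand genes were among them, of which 14 are interferon alpha genes of near-identical sequence. Absence from the lists shows neither that a gene was tested nor that its accessibility was the same.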

How the data were processed

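ATAC-seq reads mark where the transposase Tn5 could cut, and so where chromatin is open. The submitters' processing notes name the build mm10 and the tools MACS2 2.1.2, HOMER 4.10, Bowtie2, Picard, FastQC and SAMtools 1.3.1, without saying what each did. The sources used here do not state how regions were tested, libraries scaled, duplicates treated or reads shifted for Tn5. Per the file headers, the authors deposited, region by region, log2 fold changes and adjusted p-values. Widths and distances to gene starts, in bp, are other deposited columns. The abbreviations TKO, TWT and VKO in the list names were read as Tie2 knockout, Tie2 control and Vav knockout. Depth per sample is unknown and no replicate error could be computed.

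Member genes were taken by symbol, and all 62 matched by identifier to RefSeq genes of GRCm38.p6. Family sizes and background shares are over protein-coding genes of that table. Shares were not tested, since the lists hold called regions only. A region over the gene start has distance 0. The rule for named genes took 39, namely every gene called in 2 or more comparisons, with 2 or more regions in a comparison or with both directions, and the 5 largest changes per comparison and direction. The remaining 23 of 62 members are also given with a value, so that every member is accounted for, and printed windows come from the 39 only. Members, lists and partners were chosen with earlier results of these data known. Counting, motif and CpG functions were tested on simulated data. Python 3.11.15, pandas 2.3.3 and matplotlib 3.10.9 were used. Stricter fold change and p thresholds, start regions only, regions of a single gene and stricter overlap were tried as alternatives. Values of some genes in the signalling and related lists are not reported here.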

Additional observations from a re-analysis of the deposited data

Results flagged for a closer look

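The knockouts differed from each other at these members: the authors tested Tie2 KO directly against Vav KO and called a region that overlaps one called in a knockout against Tie2 WT. The comparisons share samples. In Vav KO against Tie2 WT the Cre line cannot be told apart from the genotype, and the knockouts also differ from each other in Cre line.

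At regions also called in Tie2 KO against Tie2 WT, the log2 fold changes of Tie2 KO over Vav KO in the authors' deposited table were 1.76 at Tnfrsf12a, 1.48 at Il17rd, 1.41 at Cxcl14, 1.60 at Il1r1, 1.30 at Tnfsf11, 1.01 at Il25, 0.94 at Cxcl12 and 0.64 at Tnfrsf22. At such regions they were below 0 at Il23a (-1.12), at the upstream region of Il15 (-1.10) and at Ccl17 (-0.67) in the authors' deposited table.

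At regions also called in Vav KO against Tie2 WT, the log2 fold changes of Tie2 KO over Vav KO in the authors' deposited table were -2.25 at Ccl6, -2.06 at Il27, -1.58 at Tnfsf12 and Tnfsfm13, -1.38 at Il12rb1, -1.14 at the upstream region of Tnfrsf1a and -0.84 at the start of Il15. They were above 0 at Cxcl5 (1.79), Il18bp (1.16) and Il1rn (0.95) in the authors' deposited table.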

How the results depend on the processing

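With an adjusted p of at most 0.01, and with regions paired with a single gene only, each of the 6 counts of member genes stayed within 1.5 times its value as deposited. With an absolute log2 fold change of at least 1, Tie2 KO against Tie2 WT kept 14 of 24 higher and 2 of 9 lower member genes, and the other 4 counts stayed within that range. With regions over a gene start only, the counts of higher and lower member genes were 10 and 2 in Tie2 KO against Tie2 WT, 3 and 1 in Vav KO against Tie2 WT and 8 and 3 in Tie2 KO against Vav KO. These settings keep fewer regions by construction. Member regions overlapped between comparisons in 26 cases at 1 bp or more, and in 21 where the overlap had to reach 50% of both regions. No such count was made for all regions. No paired analysis was possible because the lists hold no value per sample, and for the same reason no replicate could be left out. Depth is unknown, so a gene's absence from a list cannot be set against the precision of the libraries.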
